A study of Drosophila melanogaster with 9 samples.

Results

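The transcriptome described here is that of S2R+ cells kept in MB10, the standard serum medium of this line, and it rests on 3 of the 9 RNA-seq libraries of the study. The libraries were chosen by their label alone, so no measured value entered the choice. All 3 were made from the DGRC stock of S2R+, a Drosophila melanogaster line of embryonic origin from the Oregon-R strain, which is cultured in Shields and Sang M3 medium with bactopeptone, yeast extract (together BPYE) and 10% fetal calf serum. For each library the same number of cells was collected from a culture of the same density, total RNA was extracted and a stranded, poly(A)-selecting mRNA kit was used. The other 6 libraries come from lines adapted to media that hold fly extract in place of serum, and no comparison with them was made. S2R+ is a single established line, so the replicates show the spread between collections of that line and not between lines or animals. Whether the 3 collections came from separately passaged cultures is not given in the sources used here.

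S2R+ cells are usually described as hemocyte-like. Hemocytes are the blood cells of the fly: plasmatocytes engulf microbes and dead cells and lay down extracellular matrix, crystal cells carry prophenoloxidases for melanization, and lamellocytes, which appear mainly after parasitization, encapsulate large objects. The line is also a workhorse for studies of cell signaling, in which it matters which ligands and receptors a cell makes by itself, and for RNA interference.

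The deposited read counts summed to 20868239, 22713658 and 22380465 in replicates 1, 2 and 3. Expression is given as CPM, the usual count relative to the library total, with the totals scaled by the TMM method, with the mean and SD of the 3 libraries. Because a long gene collects more reads than a short one at the same number of transcripts, levels of different genes are ranked as TPM, which divides each gene's counts by its exon length, while CPM shows where a gene stands against the threshold. A gene was called expressed when it exceeded 10 CPM in each of the 3 libraries. A gene with 3 counts or fewer in every library was placed at the floor, which corresponds to 0.128 to 0.148 CPM, and the genes in between were called low. These limits cover counting error only. No test between conditions was made, and 3 values against 3 cannot give a two-sided exact permutation p under 0.10, so genes are set side by side by their replicate values.

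Of the 17562 genes in the table, 6406 were expressed, or 36.5%. Another 3287 genes, or 18.7%, were low, and 7869 genes, or 44.8%, were at the floor, of which 5258 had no count in any library. The study's own threshold is a TMM-normalized value for which no unit is named. With the threshold of 10 read as normalized counts instead of CPM, 8091 genes passed in place of 6406. The larger count, from MB10 alone, exceeds the number of genes that the study calls expressed over all its media together. The count by CPM does not, so normalized counts are unlikely to be the unit of the study's threshold. Among the 13903 protein-coding genes, 6251 were expressed (45%), 2481 were low (17.8%) and 5171 were at the floor (37.2%). These percentages are the background against which every list is read. The expressed genes held 99.3% ± 0.0171 of the counts (SD, n = 3). Their median level was 61.0 CPM, 1854 of them exceeded 100 CPM in every library and 92 exceeded 1000 CPM. Just inside the threshold, CG7458 had a mean of 10.3 CPM, and just outside it CG12659 had 9.99 CPM.

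**Figure D1:**
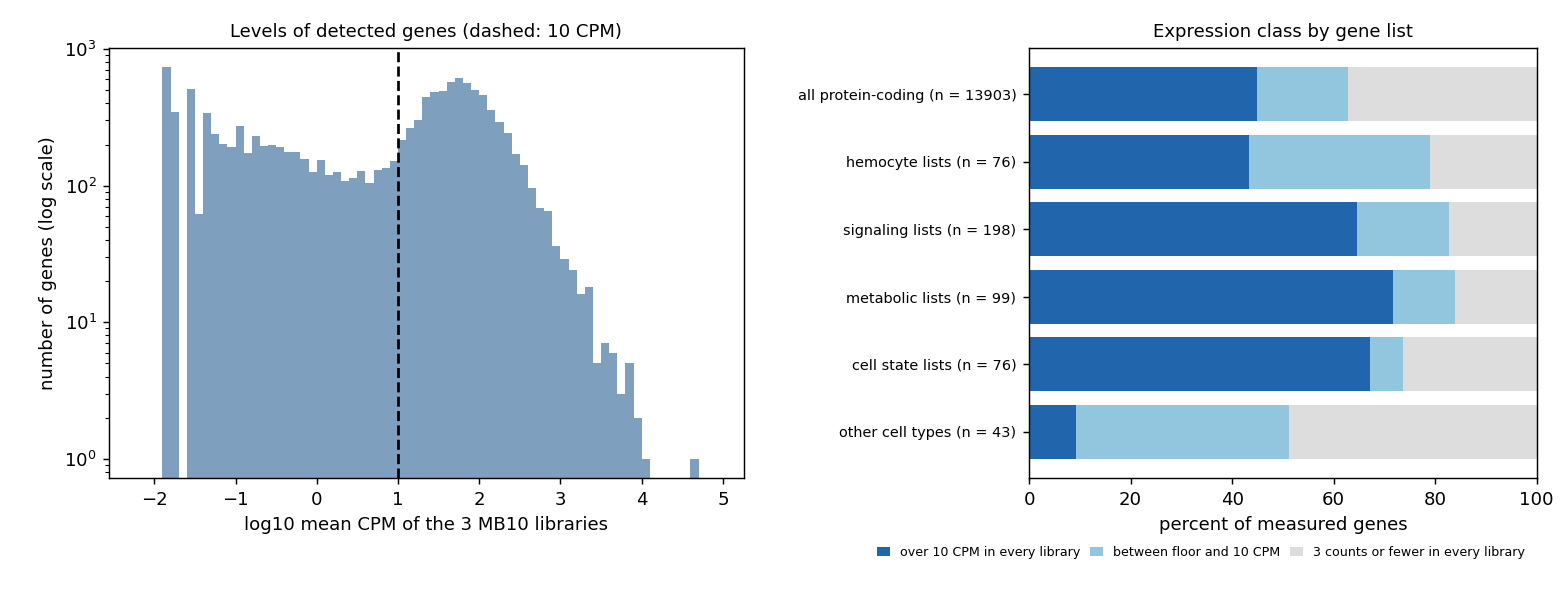
The left panel is a histogram of log10 mean CPM over the 3 MB10 libraries for genes with at least 1 count (vertical axis: number of genes, log scale; dashed line: 10 CPM). The right panel gives the percent of measured genes in each class for all 13903 protein-coding genes and for the hemocyte (n = 76), signaling (n = 198), metabolic (n = 99), cell state (n = 76) and other cell type (n = 43) lists; the signaling and metabolic bars reach 64.6% and 71.7% expressed, the other cell type bar 9.30%.

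The transcripts with the highest levels belonged to the mitochondrial genome and to the cytosolic ribosome. Of the 100 genes with the highest TPM, 55 are ribosomal protein genes named RpL or RpS and 11 lie on the mitochondrial genome. The first was mt:lrRNA, the large mitochondrial ribosomal RNA (FBgn0013686, mitochondrial genome, 12735 to 14058), with 1309700, 858969 and 896718 counts in replicates 1, 2 and 3. It made up 6.28%, 3.78% and 4.01% of the counts of these libraries, so replicate 1 stood above the other two. The small mitochondrial ribosomal RNA, mt:srRNA, lies next to it on the same strand and reached 456 ± 106 TPM, against 59721 ± 16275 TPM for mt:lrRNA, a ratio of 130 ± 8.69. The kit used enriches for polyadenylated RNA, so levels of ribosomal and other RNAs with short or no tails are not measured on the same footing as those of messenger RNAs.

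Among protein-coding genes the highest level was that of RpL41 (FBgn0066084, 2R, 24903416 to 24903935), which encodes a very small protein of the large ribosomal subunit. It had 90851, 74448 and 81078 counts in replicates 1, 2 and 3, or 19799.6 ± 2369.9 TPM. The next were mt:CoIII, a subunit of cytochrome oxidase, with 18472 ± 2474 TPM, and RpL39, with 15780 ± 1259 TPM. The replicate values of RpL41 and mt:CoIII overlapped, and their order changed between libraries. The ranges of mt:CoIII and RpL39 overlapped as well, but mt:CoIII was higher in every library.

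The other members of the first 20 fall into 3 groups. Mitochondrially encoded subunits of the respiratory chain and of ATP synthase ran from mt:CoI, with 13754 ± 2388 TPM, through mt:CoII, mt:ATPase6 and mt:Cyt-b to mt:ND3, with 4994 ± 1054 TPM. Ribosomal protein genes ran from RpL21, with 11624 ± 695 TPM, through RpL10, RpS27A, RpL23, RpS28b and RpL29 to RpS23, with 4815 ± 1299.9 TPM. The remaining 4 genes were tsr, eEF1alpha1, Act42A and eEF5.

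These 4 genes serve the cytoskeleton and translation elongation. Twinstar (tsr, 2R, 24044453 to 24046805) encodes the fly cofilin, which severs actin filaments, and had 8218 ± 733 TPM. The elongation factor gene eEF1alpha1 had 5923 ± 495 TPM, and eEF5 had 4875 ± 320 TPM. Act42A, one of the cytoplasmic actins, had 5608 ± 448 TPM, 2.33 ± 0.138 times the level of the other, Act5C, in the same libraries. The coding parts of the actin genes are close copies, so reads from them may be divided between the genes by the mapping.

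**Figure D2:**
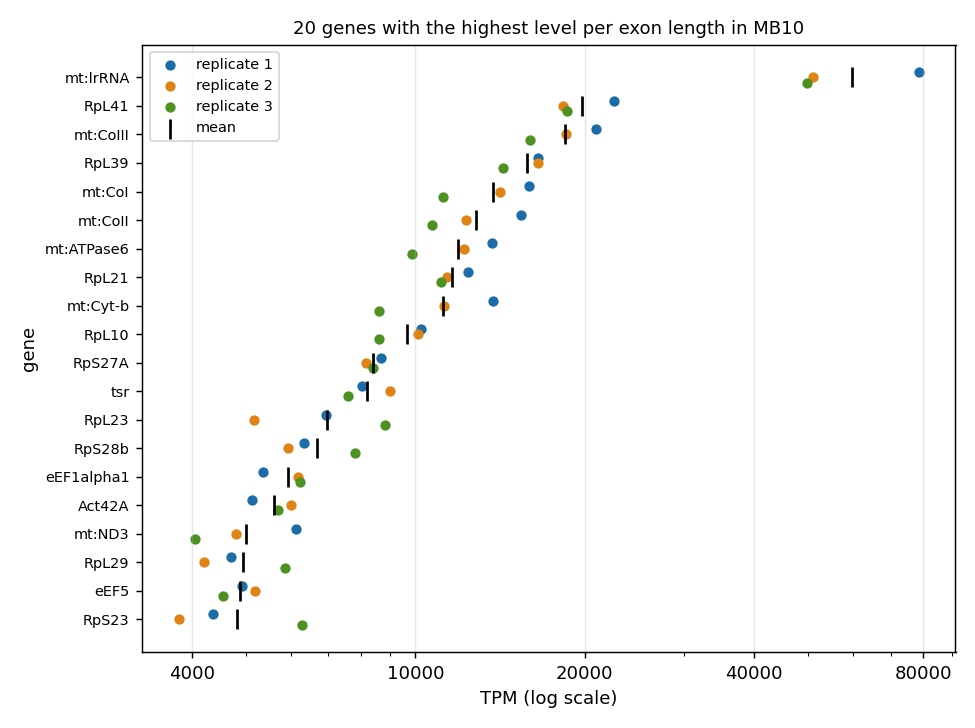
TPM (horizontal axis, log scale) of the 20 genes with the highest mean level in MB10; colored points are replicates 1, 2 and 3 and the black tick is their mean. mt:lrRNA stands apart from RpL41, the next gene, in every library, while the replicate ranges of each pair of neighbors below overlap.

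By counts, which weigh long genes more, the first 10 were mt:lrRNA, mt:CoI, eEF1alpha1, mt:CoIII, mt:Cyt-b, RpL5, the nuclear ribosomal RNA gene pre-rRNA:CR45847, RpL10, eEF2 and pre-rRNA:CR45845. Together they held 14.2%, 10.7% and 10.5% of the counts of replicates 1, 2 and 3. The 100 genes with the most counts held 34.0%, 29.1% and 30.3%, and 414 genes were enough to hold 50% of all counts. The nuclear ribosomal RNA genes are near-identical copies and took 3.79%, 2.87% and 2.83%. Other genes, mostly ribosomal RNA genes, are nested on the same strand and cover 76.8% of the exon length of pre-rRNA:CR45847. Reads in such shared parts can be counted for both genes, so these shares can hold them more than once. Replicate 1 thus carried the largest share of ribosomal RNA and of mitochondrial RNA, for which the shares were 12.4%, 8.57% and 8.20%.

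Outside the ribosome, the mitochondrion and the first 20, several other transcripts were abundant. CtsL1, which encodes a cathepsin L, a lysosomal protease, had 102218, 101668 and 122525 counts, or 4048 ± 264 TPM. Lamp1, which encodes a lysosomal membrane protein, had 2251 TPM, the decondensation factor gene Df31 2773 TPM and the chaperone genes Hsp83 and p23 1987 and 1964 TPM. The highest noncoding RNA outside the ribosomal RNAs was lncRNA:CR32368 (3L, 7915437 to 7915846), with 18197, 16606 and 16979 counts, or 3248 ± 248 TPM. Another, lncRNA:CR42862, was lower per length, at 689 TPM, but collected more reads, 2209 ± 369 CPM. In all, 68 of 2511 ncRNA genes were expressed, beside 36.5% of all genes counted. Of the 68, 19 share at least 20% of their exon length with another gene on the same strand. Reads in the shared part cannot be traced to a single gene and can have entered the counts of both. The calls of these 19 may therefore rest on reads of the other gene.

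The 37 gene lists used below were drawn up by role. Of the 76 measured genes in the hemocyte lists, 33 were expressed, 27 were low and 16 were at the floor, or 43.4% expressed beside 45% of all protein-coding genes. Secreted and matrix genes were mostly expressed (16 of 25), the plasmatocyte list was mixed (8 of 17), and none of the 14 antimicrobial peptide genes was expressed.

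Among the plasmatocyte markers, the phagocytic receptor gene croquemort (crq, FBgn0015924, 2L, 448254 to 453024), a CD36 relative that takes part in the clearance of dead cells, had 8353, 11417 and 8120 counts, or 421 ± 62.5 CPM. Peroxidasin (Pxn), a matrix enzyme used as a general hemocyte marker, had 6997, 8380 and 9236 counts, or 372 ± 35.7 CPM. Both were far above the threshold in all libraries. NimC4, also called simu, another receptor for apoptotic cells, had 65.7 ± 8.76 CPM. Per length, crq (252 ± 55.5 TPM) was above Pxn (106 TPM) and NimC4 (86.7 TPM) in every library. The ranges of Pxn and NimC4 overlapped, but Pxn was higher in every library.

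Other markers commonly used for plasmatocytes were near or under the threshold. Hemolectin (Hml), which encodes a large clotting protein and whose promoter drives many hemocyte transgenes, had 241, 336 and 210 counts. Its CPM values of 11.9, 14.3 and 9.39 straddled the threshold, so that Hml was called low. The phagocytosis receptor gene eater had 57, 97 and 68 counts, and He, or Hemese, had 9, 19 and 17. NimC1, which encodes the P1 antigen of plasmatocytes, was at the floor with 2, 3 and 1 counts, and NimC2 had no count.

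The scavenger receptor genes split in the same manner. Sr-CI was expressed at 20.8 ± 2.44 CPM, whereas Sr-CII, with 0, 1 and 1 counts, and Sr-CIV, with 2, 0 and 1 counts, were at the floor. Of the remaining receptors, the engulfment receptor gene drpr (12.5 ± 0.709 CPM), the integrin subunit gene Itgbn (21.2 ± 4.33 CPM) and PGRP-LC (11.2 ± 0.876 CPM) were expressed at modest levels.

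The basement membrane genes were unequal. The 3 laminin subunits form a single trimer and were all expressed: LanA had 44403, 61245 and 45561 counts, LanB2 13144, 16913 and 16217, and LanB1 9869, 13521 and 10513. Per length, LanA (333 ± 68.5 TPM) was above LanB2 (201 TPM) and LanB1 (139 TPM) in every library, and the ratio of LanB1 to LanA was 0.418 ± 0.010. SPARC, a collagen-binding matrix protein, had the highest level of all 76 hemocyte genes, 1293 ± 265 TPM, and Glutactin (Glt) had 785 ± 110 TPM. The ranges of SPARC and Glt did not overlap.

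The collagen IV genes were in contrast low. Col4a1 had 80, 91 and 123 counts, or 4.44 ± 0.912 CPM, and its partner chain vkg 49, 68 and 74 counts, or 2.88 ± 0.443 CPM. Nidogen (Ndg), which links laminin to collagen IV, was at the floor with 0, 1 and 1 counts. The perlecan gene trol was expressed at 180 ± 14.4 CPM and papilin (Ppn) at 34.3 ± 5.48 CPM.

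Among secreted proteins of the hemolymph was Idgf6, an imaginal disc growth factor of the chitinase-like family, with 11719, 13406 and 16337 counts, or 586 ± 74.3 TPM. The family was ordered Idgf6, Idgf3, Idgf2 and Idgf1, at 586, 111, 81.1 and 46.8 TPM, with no overlap between neighbors, and Idgf5 and Idgf4 were low at 8.61 and 0.681 CPM. Among the thioester-containing proteins, which opsonize microbes, Tep4 had 118 ± 22.4 TPM, 11.0 ± 0.756 times the level of Tep2, and Tep3 was at the floor with 1, 0 and 0 counts. The related gene Mcr was expressed at 76.9 ± 11.4 CPM. The clotting genes fon and Tg were low at 1.92 and 3.52 CPM, and apolpp had 13.6, 14.4 and 9.88 CPM, with replicate 3 under the threshold.

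Markers of the other hemocyte classes were mixed. For crystal cells, the Runx factor gene lozenge (lz) was at the floor with 0, 1 and 0 counts, PPO1 had 1, 4 and 6 counts and PPO2 had 54, 46 and 93, so only peb (15.8 ± 1.95 CPM), a zinc finger factor gene that is also active in other tissues, was expressed. For lamellocytes, the surface antigen gene atilla was at the floor with 1, 0 and 0 counts and ItgaPS4 was low at 3.00 ± 0.695 CPM. PPO3, the lamellocyte prophenoloxidase, was however expressed, with 353, 351 and 610 counts, or 19.9 ± 6.50 CPM. The widely used cytoskeletal and adhesion genes of that list, msn (583 ± 31.7 CPM), cher (396 ± 5.43 CPM) and mys (250 ± 7.17 CPM), were expressed too.

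The transcription factors fell into an active and a silent set. The GATA factor gene serpent (srp, FBgn0003507, 3R, 15986152 to 16004085), which specifies the blood lineage, had 5693, 6832 and 6412 counts, or 286 ± 5.00 CPM. Its partner u-shaped (ush) had 332 ± 42.8 CPM, zfh1 443 ± 29.9 CPM and jumu 176 ± 19.3 CPM. Per length, srp and ush overlapped at 83.4 and 84.4 TPM. The mesodermal factor gene tin was low with 4, 5 and 3 counts, and gcm and gcm2, which direct embryonic plasmatocyte fate, and kn and Antp, which mark the signaling center of the lymph gland, had no count in any library.

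**Figure D3:**
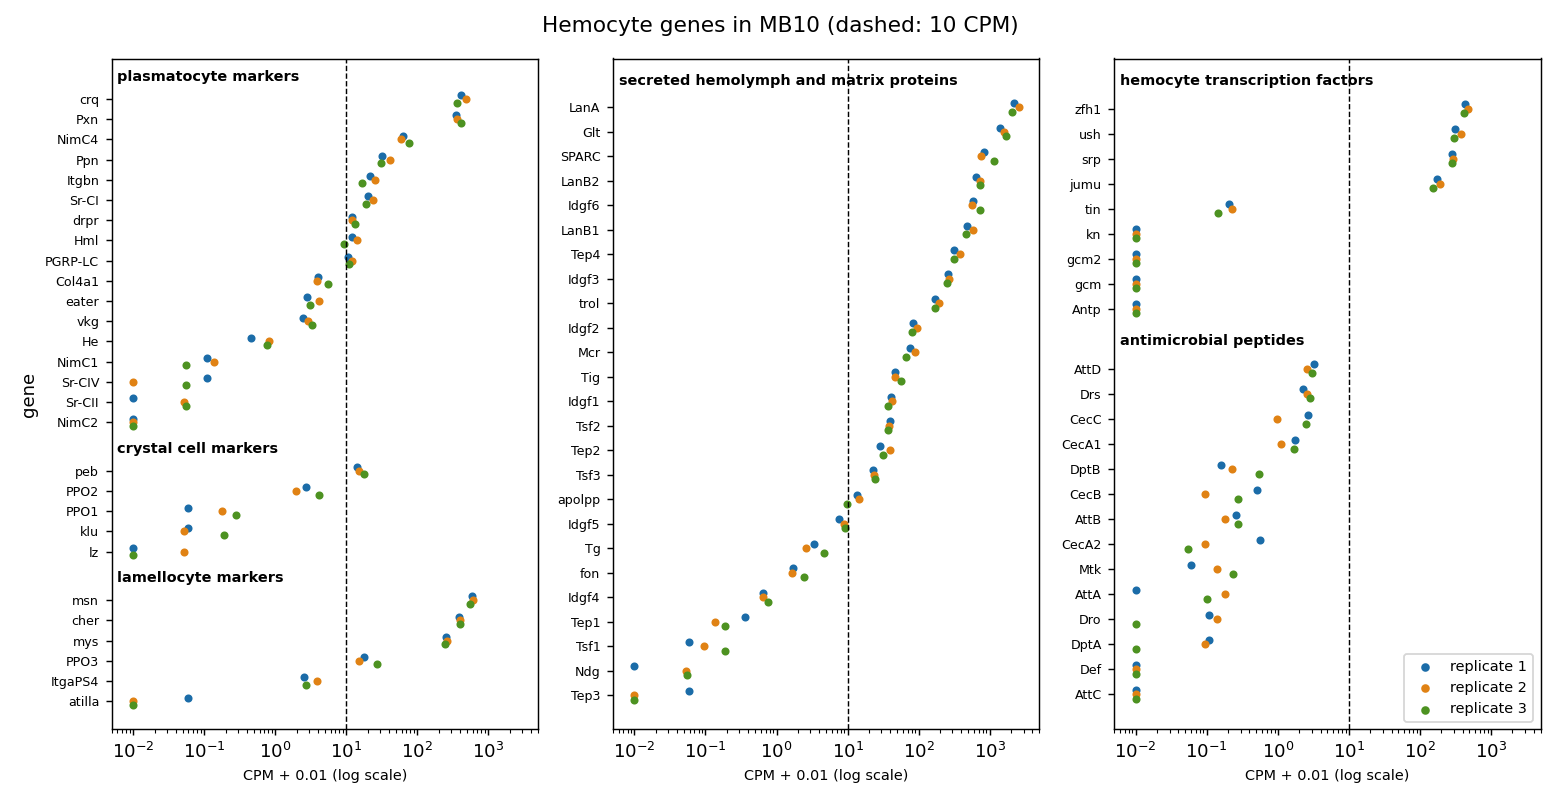
CPM + 0.01 (horizontal axis, log scale) of the 76 hemocyte genes, grouped by list and sorted by mean, with 1 point per MB10 library and a dashed line at 10 CPM. crq, Pxn, srp, ush and the laminin genes lie well to the right of the line, Hml straddles it, and gcm, gcm2, kn, Antp and NimC2 sit at 0.

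Antimicrobial peptides are the effectors of the humoral response and are made by the fat body and by hemocytes after infection. Of the 14 genes, 10 were low and 4 were at the floor. The highest per length was Drs, with 45, 60 and 63 counts, or 11.1 ± 1.64 TPM. AttD had 66, 60 and 67 counts, or 2.94 ± 0.355 CPM. CecC had 54, 23 and 55 counts and CecA1 35, 26 and 38. Dro had 2, 3 and 0 counts, DptA 2, 2 and 0, and Def and AttC had none. The whole list summed to 10.4 ± 1.85 CPM.

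The pathways that turn these genes on were expressed almost in full. All 8 Toll pathway genes were expressed, from the ligand gene spätzle (spz), with 6563, 8897 and 7030 counts, or 245 ± 44.1 TPM, to the NF-κB factor gene Dif, with 10.2 ± 1.75 TPM. The receptor gene Toll (Tl) had 25.1 TPM, and the adaptor tub and the kinase gene pll had 87.1 and 50.8 TPM. Of the 13 Imd pathway genes 11 were expressed, and per length key, the fly IKKγ, was the highest with 341 ± 30.2 TPM. The NF-κB factor gene Relish (Rel) had 100 ± 18.3 TPM and the kinase gene IKKbeta 65.1 ± 13.4 TPM. The receptor genes were low in level, PGRP-LC at 5.10 TPM and PGRP-LE at 1.66 TPM. The amidase gene PGRP-LB, an inhibitor of the pathway, was low with 5, 5 and 8 counts. Per length, Rel exceeded dl by 4.24 ± 0.132 times, and dl exceeded Dif by 2.32 ± 0.0348 times.

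Across the 13 signaling lists, 128 of 198 measured genes were expressed, 36 were low and 34 were at the floor. The 64.6% expressed stands beside 45% of all protein-coding genes. The classes differed by role: 14 of 43 ligands were expressed and 20 were at the floor, 20 of 33 receptors were expressed and 3 were at the floor, and 94 of the 122 other members were expressed. The other members include intracellular components, secreted inhibitors, target genes and ecdysone synthesis genes, so they are no single class. Ligands were mostly low or at the floor.

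In the JAK/STAT pathway, which takes part in hemocyte proliferation, the receptor gene domeless (dome) had 47.5 ± 3.79 CPM, the kinase gene hop 52.4 ± 6.56 CPM and the factor gene Stat92E 406 ± 45.8 CPM. None of the 3 ligand genes was expressed. Counts were 1, 1 and 0 for upd1, 17, 24 and 20 for upd2 and 52, 79 and 80 for upd3. The other receptor gene, et, was low with 12, 8 and 22 counts. The inhibitor genes Ptp61F (113 CPM) and Socs36E (36.7 CPM) were expressed.

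For Notch, a receptor that is cut after contact with a ligand on a neighboring cell, the receptor gene N was expressed with 2841, 3367 and 3001 counts, or 139 ± 4.84 CPM. The ligand gene Delta (FBgn0000463, 3R, 19302731 to 19326217) was at the floor with 1, 1 and 0 counts. The other ligand gene, Serrate (Ser), had 237, 276 and 269 counts, or 11.8 ± 0.162 CPM, just over the threshold in each library. The genes of the proteases that cut Notch, kuz (233 CPM), Psn (191 CPM), Nct (201 CPM), aph-1 (102 CPM) and pen-2 (43.6 CPM), were all expressed. The glycosyltransferase gene fng was low with 7, 10 and 18 counts. Of the 7 E(spl) target genes only E(spl)mbeta-HLH was expressed, at 15.9 ± 2.23 CPM, and 4 had no count: E(spl)mgamma-HLH, E(spl)m5-HLH, E(spl)m7-HLH and E(spl)m8-HLH.

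In the Wnt pathway 6 of 7 ligand genes were at the floor, among them wg with 1, 0 and 1 counts, Wnt2 with 0, 0 and 2, Wnt4 with 1, 0 and 0, and Wnt6, Wnt10 and wntD with none. The exception was Wnt5, a ligand best known from axon guidance, with 674, 847 and 697 counts, or 33.5 ± 2.50 CPM. Frizzled receptor genes were led by fz4 (16.1 ± 2.29 TPM), followed by fz (3.97 TPM) and fz2 (3.62 TPM), which overlapped, and fz3 (0.570 TPM), and the co-receptor gene arr had 15.1 TPM. All 7 core genes were expressed, with the β-catenin gene arm at 947 ± 28.5 CPM, and wls, which is needed to secrete Wnt proteins, had 63.6 TPM. The secreted inhibitor gene Notum was expressed at 60.3 ± 3.16 CPM.

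In the Hedgehog pathway all 4 receptor and co-receptor genes were expressed, but not the ligand hh or the transcription factor gene ci. The ligand gene hh was at the floor with 0, 1 and 0 counts, although disp, which releases the ligand, had 74.9 CPM. The receptor gene ptc had 1317, 1801 and 1374 counts, or 67.8 ± 8.05 CPM, and smo had 82.9 ± 12.6 CPM, and ihog and boi were expressed at 22.3 and 12.5 CPM. The kinesin-like gene cos (98.9 CPM), the kinase gene fu (47.9 CPM) and Su(fu) (48.4 CPM) were also expressed. In contrast ci, the only Gli factor of the fly (chromosome 4, 47710 to 57041), had 11, 10 and 5 counts, or 0.398 ± 0.162 CPM.

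Ligands of the TGF-β family were better represented. Of 7 genes, myo (72.9 ± 17.6 TPM), gbb, mav and daw were expressed, while scw had no count, dpp had 2, 7 and 9 and Actbeta 4, 7 and 2. The ranges of myo and gbb (57.8 ± 9.54 TPM) overlapped. The receptor genes sax (60.3 TPM), babo (53.5 TPM), put (30.1 TPM) and tkv (10.8 TPM) were expressed, and wit was low with 10, 14 and 13 counts.

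The EGF receptor pathway had a well expressed ligand beside a receptor that was nearly undetectable. The ligand gene spitz (spi, FBgn0005672, 2L, 19567900 to 19577315) had 7667, 8639 and 8279 counts, or 348 ± 22.5 TPM. The ligand genes grk (19.2 CPM) and Krn (13.3 CPM) were expressed too, and vn was low with 56, 66 and 43 counts. The receptor gene Egfr (FBgn0003731, 2R, 21522420 to 21559977) had 1, 5 and 2 counts, or 0.117 ± 0.0854 CPM. All 8 core genes downstream, from drk (569 ± 55.6 CPM) and Ras85D (329 ± 9.08 CPM) to the ETS factor gene pnt (516 ± 44.7 CPM), were expressed, and so was the inhibitor gene sprouty (sty), with 21347, 24676 and 19613 counts. Of the genes that process the ligand, Star (S), which aids the export of spi, was expressed at 27.0 CPM, rho was low at 7.05 CPM and ru was at the floor with 0, 1 and 0 counts.

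These core genes also serve other receptor tyrosine kinases. Only Pvr, the PDGF and VEGF receptor of the fly, which is needed for the survival of embryonic hemocytes, was expressed among the 7 other receptor genes, with 14908, 19312 and 16204 counts, or 762 ± 54.2 CPM. Of its ligands, Pvf2 was expressed at 22.5 ± 0.984 CPM, Pvf3 was low at 3.64 ± 0.774 CPM and Pvf1 was at the floor with 2, 3 and 2 counts. The receptor genes htl and Alk were at the floor, with 1, 0 and 0 and 1, 0 and 3 counts, and the ligand gene boss had no count. The FGF ligand gene bnl was expressed at 20.7 ± 1.95 CPM, although its receptor gene btl had 8, 22 and 19 counts. Jelly belly (jeb), the ligand of Alk, had 1, 0 and 1 counts. The FGF genes pyr and ths had 7, 8 and 10 and 8, 4 and 2 counts. The Torso ligand gene trk was low at 6.18 CPM and its receptor gene tor had 0, 4 and 4 counts, and the receptor genes sev (2.37 CPM) and Ret (3.32 CPM) were low as well.

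In the insulin and TOR lists 18 of 25 genes were expressed, and all 7 others were insulin-like peptide genes at the floor. Ilp1, Ilp2, Ilp3, Ilp4, Ilp5 and Ilp7 had no count and Ilp8 had 1, 0 and 0. Ilp6, a peptide known from the fat body, was expressed with 342, 381 and 348 counts, or 16.2 ± 0.678 CPM. The receptor gene InR had 112 ± 22.1 CPM, Rheb 117 CPM, Akt 326 ± 34.5 CPM and S6k 266 ± 30.3 CPM. ImpL2, which encodes a secreted protein that binds insulin-like peptides, had 12497, 14492 and 13117 counts, or 387 ± 35.4 TPM, the highest level of the list. The 4E-BP gene Thor, a target of FOXO, was near the threshold at 12.6 ± 0.743 CPM, as was foxo at 11.8 ± 1.16 CPM.

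Eiger (egr, FBgn0033483, 2R, 10078366 to 10084210), the TNF of the fly, had 11719, 14895 and 13362 counts, or 474 ± 58.5 TPM, the highest level of all 43 ligands. Of its receptors, wgn had 37.1 ± 0.427 CPM and grnd had no count in any library. The JNK cascade downstream was expressed, with kay, the fly Fos, at 710 ± 32.3 CPM the JNK gene bsk at 213 ± 25.9 CPM and Jra, the fly Jun, at 172 CPM. In the Hippo list 9 of 12 genes were expressed, among them hpo, sav, wts, mats, yki and sd, and ex had 219 CPM. The giant cadherin gene ft, at the top of that pathway, was at the floor with 2, 2 and 0 counts, and its binding partner ds had 3, 2 and 8. The polarity gene crb was low at 3.93 CPM.

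For ecdysone, the steroid that times molting, both subunits of the receptor were expressed, EcR at 76.8 ± 11.1 CPM and usp at 72.5 ± 3.93 CPM. Of the 6 genes for its synthesis, 5 were at the floor: nvd, spok, phtm, dib and sad had at most 3 counts in a library. Early response genes were expressed unequally, with br at 177 ± 17.2 CPM Eip75B at 42.7 ± 2.91 CPM and MsrA at 35.2 CPM, while Hr3 and Hr4 were low at 0.517 and 0.538 CPM.

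**Figure D4:**
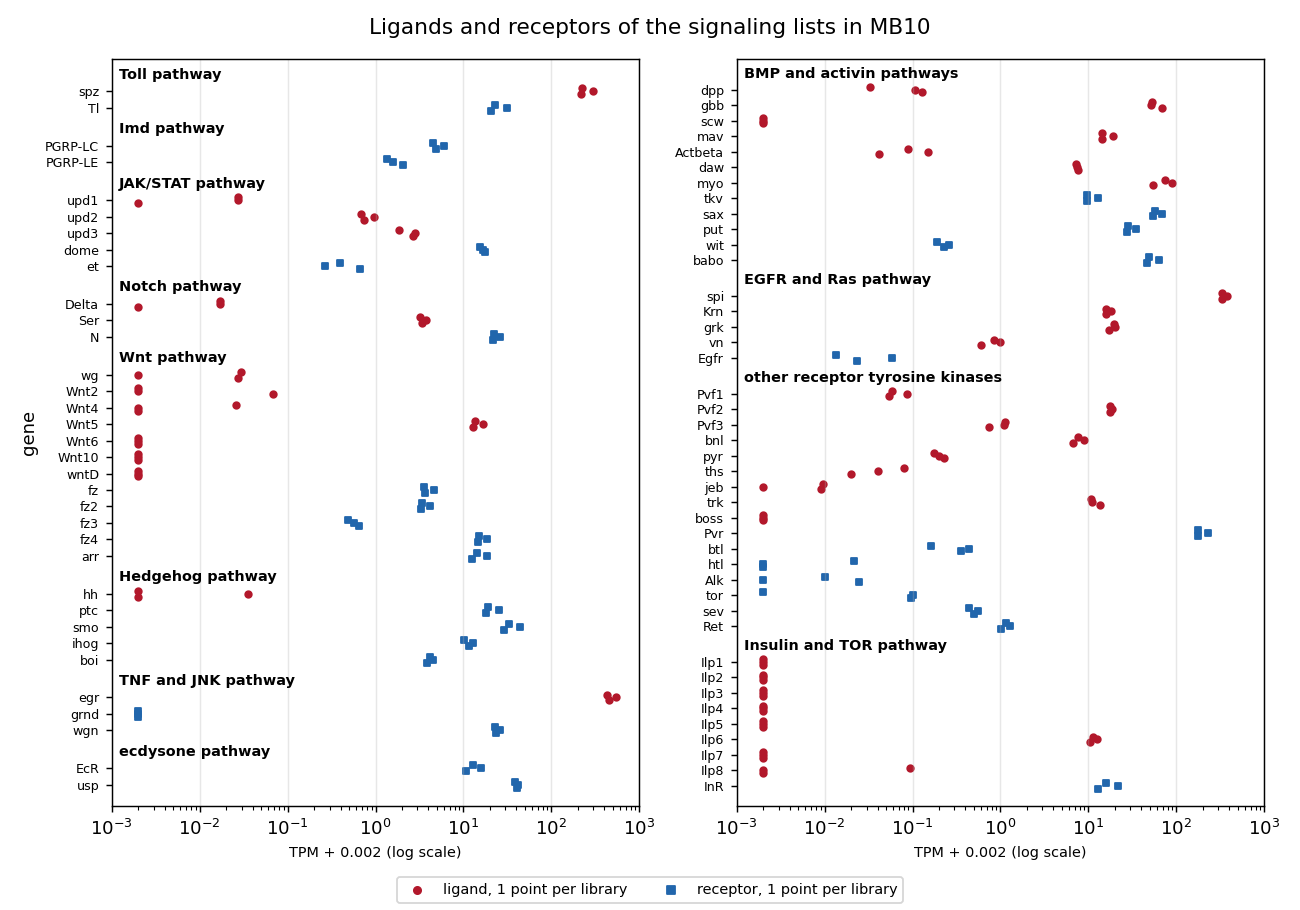
TPM + 0.002 (horizontal axis, log scale) of the 43 ligands (red circles) and 33 receptors (blue squares) of the signaling lists, with 1 point per MB10 library. spi lies at 348 TPM over Egfr at 0.0297 TPM, Delta, hh and most Wnt and Ilp genes sit at the left edge, and Pvr, egr and spz lie to the right.

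Of the 5 groups of lists the metabolic one was the most complete. Of its 99 measured genes 71 were expressed (71.7%), beside 45% of all protein-coding genes, 12 were low and 16 were at the floor. Many of the silent genes belong to a family of which another member was expressed. Hexokinase is an example: Hex-A had 4521, 5922 and 4921 counts, or 232 ± 17.9 CPM, and Hex-C had no count. Likewise Pglym78 had 56.4 ± 13.1 CPM and Pglym87 no count, mAcon1 214 ± 12.4 CPM and mAcon2 no count, and Fum1 83.6 ± 19.5 CPM beside Fum3 with no count. Gapdh1 and Gapdh2 were both expressed, and Gapdh1 was 10.5 ± 1.64 times higher per length.

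In glycolysis 13 of 15 genes were expressed, and the highest per length were Gapdh1 (253 ± 46.5 TPM), PyK (237 ± 37.7 TPM) and Pgk (155 ± 21.4 TPM). Lactate dehydrogenase (Ldh) was modest at 20.8 ± 2.58 CPM. All 5 pentose phosphate genes were expressed, led by Taldo at 204 ± 38.8 TPM, Rpe at 140 TPM and Pgd at 119 TPM. In the citrate cycle and gluconeogenesis list 19 of 23 genes were expressed, led by Scsalpha1 (221 ± 22.9 TPM) and kdn, the citrate synthase gene (176 TPM), and then by the malic enzyme gene Men (120 TPM). Both phosphoenolpyruvate carboxykinase genes were expressed, Pepck1 6.60 ± 0.549 times above Pepck2 per length.

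The sugar transporter genes of the list were low. Trehalose is the blood sugar of insects. Tret1-1 and Tret1-2, which are named as trehalose transporter genes, were low at 8.81 ± 0.375 and 5.89 ± 0.918 CPM. Trehalase (Treh), which splits trehalose, was expressed at 66.6 ± 6.10 CPM. The gene for trehalose synthesis, Tps1, was at the floor with 2, 0 and 1 counts. Glut1 had 3, 7 and 9 counts. All 5 glycogen genes were expressed, with Glys at 92.7 ± 4.20 CPM, UGP at 78.1 CPM and AGBE at 48.7 CPM.

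The main genes of fatty acid synthesis were expressed. Desat1, the main Δ9 desaturase, had 17351, 18617 and 17592 counts, or 553 ± 34.6 TPM, the highest level of the 99 metabolic genes. The factor gene SREBP had 565 ± 24.5 CPM, ATPCL 296 ± 16.3 CPM and ACC 252 ± 11.5 CPM. Of the fatty acid synthases, FASN1 had 12428, 15595 and 14212 counts, whereas FASN2 had 2, 1 and 6 and FASN3 had 7, 13 and 7. In lipid storage, the perilipin gene Lsd-1 had 81.0 ± 1.81 CPM and Lsd-2 had no count. The lipoprotein receptor genes LpR1 and LpR2 were low at 0.349 and 8.02 CPM, and the sterol transport gene Npc1a was expressed at 151 ± 32.8 CPM beside Npc1b with 0, 0 and 1 counts. The small sterol-binding protein gene Npc2a had 167 TPM.

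Amino acid metabolism showed further pairs, and the aminotransferase genes Got2 (112 TPM) and Got1 (86.0 TPM) were both expressed. Glutamine synthetase Gs1 had 218 ± 17.4 CPM and Gs2 2.12 ± 0.0170 CPM, a difference of 96.0 ± 8.25 times per length. The ornithine decarboxylase genes Odc1 and Odc2, which start polyamine synthesis, had no count in any library. Genes of the tyrosine and dopa route were silent or nearly so, with 3, 3 and 2 counts for ple, 1, 2 and 0 for Hn and 2, 4 and 1 for Ddc.

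Among metal and redox genes, ferritin stood out. The heavy and light chains assemble into a single shell and their genes overlap at one end on opposite strands of 3R. Fer1HCH had 14539, 15586 and 15858 counts, or 497 ± 16.1 TPM, and Fer2LCH had 135, 162 and 136 counts, or 6.76 ± 0.864 TPM, a ratio of 74.1 ± 7.09. Of the 5 metallothionein genes, which bind copper and zinc, MtnA had 1021, 857 and 947 counts, or 43.1 ± 6.99 CPM, and MtnB, MtnC, MtnD and MtnE were at the floor with at most 2 counts in a library. Sod1 (242 ± 30.0 TPM), Sod2 (152 TPM) and the peroxiredoxin gene Prx6b (113 TPM) were expressed, and GstE1 was at the floor with 3, 2 and 3 counts.

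The sex and dosage list covers the complex that raises transcription of the X in males. All 5 protein genes of the MSL complex were expressed: mle (123 CPM), msl-1 (72.7 CPM), msl-2 (46.5 ± 2.97 CPM), mof (31.8 CPM) and msl-3 (30.9 CPM). Of its noncoding RNAs, lncRNA:roX2 (X, 11579065 to 11580432) had 2487, 2141 and 1909 counts, and lncRNA:roX1 had 6, 2 and 3. Sxl, the switch gene of female development, was expressed at 16.4 ± 1.20 CPM and tra2 at 54.1 CPM, and dsx had 5, 5 and 4 counts. Counts per gene do not separate the male and female splice forms of Sxl, tra or dsx.

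Genes of the Y chromosome were at the floor with a single exception. The 9 genes of the list (kl-2, kl-3, kl-5, ORY, CCY, Ppr-Y, PRY, ARY and WDY), most of them needed for sperm, had no count in any library, and of all 23 protein-coding genes on the Y 22 had none. The exception was FDY (Y, 3022289 to 3024024), with 874, 819 and 1331 counts. FDY is a recent copy of vig2 on 3R, which had 9277, 9350 and 12301 counts, and the ratio of their levels was 0.153 ± 0.0167. The reads of the copies cannot be told apart by these files, so the level of FDY is uncertain. On the X, 47.9% of protein-coding genes were expressed, against 41.4% on 2L, 46.0% on 2R, 43.9% on 3L and 45.5% on 3R. The median level of expressed genes on the X was 0.741 ± 0.0235 times that on the autosomes in the 3 libraries. On chromosome 4, 52 of 79 protein-coding genes were expressed, or 65.8%.

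All 8 Hox genes were at the floor, beside 37.2% of all protein-coding genes. Counts in a library were at most 2 for abd-A and Abd-B and at most 1 for Scr and Ubx, with none for lab, pb, Dfd and Antp. All 22 cell cycle genes were expressed, beside 45% of all protein-coding genes. The highest per length were PCNA (562 ± 74.7 TPM), CycB (264 ± 21.2 TPM) and Cdk1 (196 ± 16.8 TPM). Among apoptosis genes 8 of 12 were expressed, with rpr just over the threshold at 11.2 ± 0.241 CPM the inhibitor gene Diap1 at 197 ± 4.81 CPM and the apoptosome gene Dark at 165 CPM. The gene grim had no count, skl had 2, 0 and 0 and the Bcl-2 family gene Buffy 0, 0 and 3.

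Of the 13 RNA interference and piRNA genes 11 were expressed, beside 45% of all protein-coding genes, and the other 2, piwi and vas, were low. AGO2, the slicer that siRNAs guide, had 14019, 18761 and 15416 counts, or 299 ± 49.1 TPM, 7.40 ± 0.783 times the level of AGO1, which acts with miRNAs. Dcr-2, which makes siRNAs, was 3.33 ± 0.469 times above Dcr-1. Genes of the germline piRNA route were present in part. Aubergine (aub) had 4517, 5873 and 4611 counts and armi 5369, 7220 and 5185, whereas piwi had 19, 21 and 22 and vas 13, 11 and 10. Per length aub exceeded piwi by 247 ± 35.9 times.

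Markers of other cell types were mostly low or at the floor. Of 43 measured genes, 4 were expressed, 18 were low and 21 were at the floor, or 9.30% expressed beside 45% of protein-coding genes, and the whole list summed to 237 to 264 CPM. No muscle or fat body marker was expressed, and Mhc, Act88F, Tm2, Lsp1alpha, Lsp1beta, Lsp1gamma, Lsp2, Fbp1 and Fbp2 were at the floor. The trypsin genes betaTry, alphaTry and lambdaTry, the glial gene repo and the neuronal genes ChAT and VGlut had no count, as had the spermatid gene dj and the protease gene Jon99Ciii. The germline genes zpg, aly and can and the amylase-related gene Mal-A1 had at most 2 counts in a library. The germline differentiation gene bag of marbles (bam, 3R, 25243039 to 25245109) was the highest of the list, with 2415, 3130 and 2761 counts, or 110 ± 14.7 TPM. The neuronal gene elav had 36.1 ± 4.86 CPM, but 27.9% of its exon length is shared with lncRNA:enrr on the same strand. The other 2 were the polarity and adhesion genes baz (37.9 ± 0.562 CPM) and shg (27.3 ± 4.02 CPM), and shg encodes E-cadherin.

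The 3 libraries were counted as separate samples by their labels. No pair agreed within counting noise: the chi-square per degree of freedom was 43.8 between replicates 1 and 2, 57.5 between 1 and 3 and 66.6 between 2 and 3. These values cannot tell separate cultures from separate preparations of the same culture. The common biological coefficient of variation, as edgeR names it, was 0.119 and includes any difference in preparation. Among expressed genes the median coefficient of variation was 8.61%, so most values above carry a spread of that order. The pairwise Pearson correlations of log2 levels were 0.994, 0.990 and 0.979.

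Ribosomal protein genes varied more than most. Of the 92 genes named RpL or RpS, 85 were expressed, and their median coefficient of variation was 25.7%. In 72 of the 85 the levels were ordered replicate 3 over 1 over 2, an order found in 31.8% of all expressed genes. Their median log2 ratio was 0.70 between replicates 3 and 2 and -0.31 between 2 and 1. RpL8, the gene with the largest variation of all, had 9945, 7470 and 20523 counts and a coefficient of variation of 53.5%.

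The other 9 of the 10 most variable genes were RpL35A, RpL34b, UQCR-C2, O-fut2, ATPsynD, RpL26, CG17202, Rrp4 and awd, at 42.1% to 49.0%. UQCR-C2 and ATPsynD serve the respiratory chain and ATP synthase, awd is a nucleoside diphosphate kinase and Rrp4 belongs to the exosome. Nuclear genes for complex I behaved like the ribosomal proteins, with a median log2 ratio of 0.68 between replicates 3 and 2 over 33 expressed genes, as did mitochondrial ribosomal protein genes with 0.48 over 72 genes and proteasome genes with 0.35 over 35 genes. The mitochondrially encoded protein genes did not, with a median of -0.20 over 12 genes, and 11 of 12 were lower in replicate 2 than in 1 and lower again in 3.

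Transcript length moved with this spread. With the expressed genes divided by exon length into 4 groups of equal size, the median log2 ratio between replicates 3 and 2 was 0.25 in the shortest and 0.09, -0.04 and -0.21 in the next. The median exon length of the 100 most variable genes was 1164 bases, against 2193 bases for all expressed genes, and 28 of the 100 are named RpL or RpS. The order of replicate 3 over 1 over 2 held in 91 of these 100 genes. They were picked by their spread over the same libraries, of which replicates 2 and 3 differed most, so this order is not independent of the choice. The part of length in the differences between libraries was not tested.

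**Figure D5:**
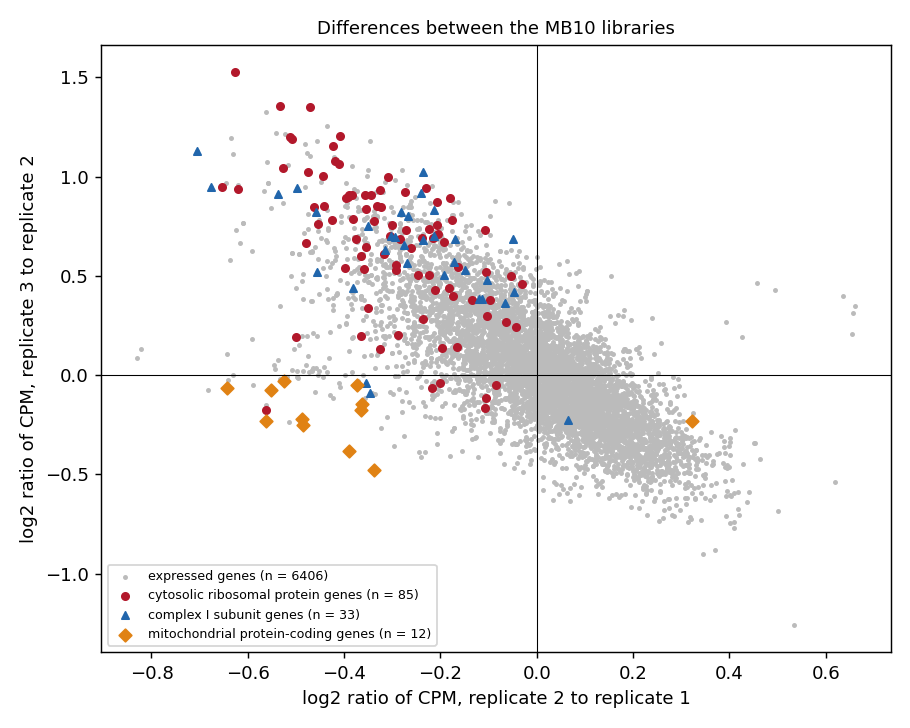
Each point is an expressed gene (n = 6406), with the log2 ratio of CPM between replicates 2 and 1 on the horizontal axis and between replicates 3 and 2 on the vertical axis. Ribosomal protein genes (red circles, n = 85) and complex I genes (blue triangles, n = 33, of which 30 are lowest in replicate 2) lie mostly in the upper left, and 11 of 12 mitochondrial protein genes (orange diamonds) lie in the lower left.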

How the data were processed

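The authors trimmed the paired-end reads of stranded mRNA libraries with Trimmomatic 0.36, mapped them with HISAT2 2.1.0 and counted them per gene with featureCounts 1.6.4, and deposited raw read counts per gene without normalization. How reads mapping to several genes were counted is not given in the sources used here. Of the 17562 gene IDs, 17477 matched the Ensembl BDGP6.54 annotation (release 115), which gave symbols, positions and exon lengths, and 85 did not.

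Every value reported comes from the 3 MB10 columns, and the other 6 entered only 1 alternative, TMM factors over 9 libraries. TMM factors (0.969, 1.03 and 1.00) and dispersions came from edgeR 4.0.16 in R 4.3.3, and TPM was computed from the union of exons. The dispersion step was also run on counts simulated with a single common dispersion taken from these libraries. Such counts lack the differences by gene family and exon length seen between the replicates, so that run cannot show how these affect the estimate. Of 20 genes nested in the exons of a gene on the opposite strand that exceeded 100 CPM, 18 had under 0.1 of the read density of the host, so strands were counted apart. In contrast, 69 genes nested on the same strand had a median of 1.01 times the density of the host. Of these, 42 had at least 0.5 times that density and 21 had under 0.1. Obp57d and Cpr57A, which share all their exons, both had 7, 4 and 5 counts. For most of these genes, though not all, reads in exons shared on the same strand thus entered the counts of each gene. Sums over genes can hold such reads more than once.

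The members and lists were chosen with earlier results of these data known, and gene families in the closing section were added after the values were seen. Named by rule are the 20 genes with the highest TPM, the 10 with the most counts, the 3 highest and all floor members of a list, ligands and receptors, and the 10 most variable expressed genes. Other names were chosen after their values were seen. Of 491 list symbols 488 were matched, and Nplp2, Med and Sat1 were not analysed here. Promoter motifs were planned and not run.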

Additional observations from a re-analysis of the deposited data

How the results depend on the processing

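The counts of expressed genes did not move by over 1.5 times under the thresholds, scalings and left-out replicates tried: all genes ran from 6406 to 8091, hemocyte genes from 33 to 48, signaling genes from 128 to 148 and metabolic genes from 71 to 77, the highest with a threshold of 10 normalized counts in place of 10 CPM, and for metabolic genes also with 1 TPM. Of the 76 measured hemocyte genes 46 passed with 1 CPM and 47 with 1 TPM. The share expressed in that list therefore depends on the threshold, and its closeness to that of all protein-coding genes holds for 10 CPM only as far as examined. The floor count was 5258 with a limit of 0 counts and 9059 with 10. Leaving ribosomal protein and mitochondrial genes out of the totals moved the share of the first 10 genes to 6.94% and of the first 100 to 22.2%, and leaving out ribosomal RNA genes, an alternative added after seeing the data, moved them to 8.02% and 26.5%. In both, the genes left out are the most abundant ones. The X to autosome ratio was 0.694, 0.696 and 0.690 with thresholds of 1 CPM, 1 TPM and 10 normalized counts, which add genes of low level. Without 1 replicate the mitochondrial share was 8.38% to 10.5%, the ribosomal protein share 10.5% to 12.3% and the coefficient of variation 0.0815 to 0.155, highest without replicate 1 and lowest without replicate 3. With the longest transcript as gene length 19 of the first 20 genes were kept. No paired analysis was possible because a single condition was described and no test between groups was made. Precision is limited by 3 libraries of 1 line, by the depth, at which 3 counts stand for 0.128 to 0.148 CPM, and by near-identical or overlapping genes.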

Other observations

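Gene families outside the lists above were added after the values were seen, and their classes describe transcripts only. They stand beside 45% of all protein-coding genes expressed and 37.2% at the floor. None of the 60 odorant receptor genes was expressed and 50 were at the floor, and of 60 gustatory receptor genes only Gr61a, a sugar receptor gene, was expressed, with 299, 316 and 351 counts. Of 66 ionotropic receptor genes only Ir76a was, with 1065, 1254 and 1072 counts, or 51.4 ± 3.01 CPM. None of 51 odorant-binding protein genes and none of 70 cuticle protein genes of the Cpr family was expressed, and 64 of the latter were at the floor. Among 10 nicotinic receptor subunit genes nAChRbeta3 was expressed at 15.1 ± 3.33 CPM, but its whole exon length lies opposite Ets21C.

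Detoxification and membrane families were expressed in part, with shares under and over the 45% of all protein-coding genes. Of 84 cytochrome P450 genes 15 were expressed (17.9%), the highest per length being Cyp310a1 at 79.3 ± 11.8 TPM. Of 35 UDP-glycosyltransferase genes 6 were expressed (17.1%), the highest being Ugt317A1 at 158 ± 16.5 TPM. Of 35 glutathione S-transferase genes 20 were expressed (57.1%), and GstE6 was the highest with 871 ± 78.2 TPM. Among 34 tetraspanin genes 9 were expressed (26.5%). Tsp42Ee, with 14548, 17735 and 14373 counts or 821 ± 119 TPM, was above the next, Tsp42Ef, at 116 ± 4.92 TPM in every library.

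Of the 92 genes named RpL or RpS, a set chosen by name alone, the 7 not expressed are paralogs of expressed genes: RpS5b, RpL22-like, RpS10a, RpL37-2, RpS28a, RpL10Aa and RpS28-like, with at most 7 counts in a library. Of 111 copies of the replication-dependent histone genes 1 was expressed, 72 were low and 38 were at the floor. The copies are near identical and how reads that map to several genes were counted is not given, so these classes are uncertain. All 4 histone genes outside the cluster were expressed, led by His2Av at 1085 ± 99.5 TPM. The replication-dependent histone RNAs also carry no poly(A) tail, and the kit selects for RNA that does; the part of either was not tested. The 6 Hsp70 copies were all expressed, and Hsp70Bb had 2036, 3718 and 4403 counts, lowest in replicate 1 and highest in replicate 3, as were the other copies, whose reads are hard to tell apart.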
